A study of Mus musculus with 6 samples.

Results

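Wnt ligands, their receptors and the genes that tune their signal were examined in mouse neurofibromas, which are benign growths of nerve that hold Schwann cells, axons, fibroblasts and immune cells. The set holds every symbol of the deposited table that begins with Wnt, Fzd, Sfrp, Dkk or Rspo followed by a digit, together with Lrp5, Lrp6, Lgr4, Lgr5, Lgr6, Axin2, Lef1, Tcf7, Nkd1, Nkd2, Notum, Wif1, Znrf3 and Rnf43. It comes to 55 of the 24421 symbols listed, and 36 of these 55 had enough reads to be tested. RNA sequencing covered 6 tumours from C57BL/6J mice, all carrying Nf1fl/fl; DhhCre, so that Cre made under the Dhh promoter of the Schwann cell lineage removes floxed Nf1 in that lineage while other cells of the tumour keep it. The group miR155KO_Nf1KO holds tumours MiRNC149, MiRNC640 and MiRNC670, which also carry the genotype Mir-155 KO, and the labels do not say in which cells that deletion acts. The group Nf1KO holds tumours Nf803, Nf809 and Nf827, with the genotype Nf1 -/- alone. No drug was given, ages are not stated, and nothing in the labels says that each tumour came from a separate mouse, so the p-values cover the spread among 6 tumours, part of which may be technical. Below, the values of 3 tumours are given in the order MiRNC149, MiRNC640, MiRNC670 and Nf803, Nf809, Nf827.

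Wnt proteins are secreted lipid-modified ligands that bind Frizzled receptors. With the co-receptors Lrp5 and Lrp6 they stabilise beta-catenin, which then acts with Tcf and Lef factors on target genes such as Axin2, while other Wnt and Frizzled pairs steer cell polarity and axon growth without beta-catenin. R-spondins, acting through Lgr receptors, keep the ubiquitin ligases Znrf3 and Rnf43 from removing Frizzled from the membrane, and Sfrp, Dkk, Wif1 and Notum proteins blunt the ligands or co-receptors outside the cell. In peripheral nerve, Wnt signals have been tied to Schwann cell differentiation and myelination and to the growth of axons.

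Library totals ran from 13061129 to 16333181 reads. The deleted locus was checked first: Mir155hg, the host transcript of miR-155, had 5, 3 and 1 reads in miR155KO_Nf1KO and 57, 66 and 71 in Nf1KO. The Schwann cell marker list (S100b, Sox10, Erbb3, Ngfr, Foxd3 and Gfap) was present in every tumour, with a summed level of 1038 to 1143 CPM (reads per 1e6 after scaling of the library size) in miR155KO_Nf1KO and 662 to 721 CPM in Nf1KO. Other cell types moved between the groups, as the plot of marker lists shows. Sensory neuron markers summed to 3426 to 5111 CPM against 822 to 1522 CPM, with 6 of 8 called higher, and macrophage markers to 270 to 489 CPM against 941 to 1890 CPM, with 4 of 8 called lower. The summed levels of the neuron, myelinating Schwann cell and Schwann cell lists were higher without overlap. In the Schwann cell list 3 of 6 genes had separated ranges and 1 was called, S100b (353 ± 54.5 against 131 ± 10.1 CPM). Foxd3 was at 20.9 ± 11.1 against 19.6 ± 3.12 CPM, and Gfap had a lower mean (13.98 ± 15.6 against 29.5 ± 4.3 CPM). Those of the macrophage, T cell, fibroblast and perineurium lists were lower without overlap. Of the 6 perineurium genes only 1 had separated ranges, Cldn1 (238 ± 95.8 against 772 ± 299.6 CPM). Of the 4 tested T cell genes 1 did, and of the 8 macrophage genes 7 did. By construction, any list separated between the groups lies on the same side as every member separated in that direction. The part of these lists in the levels of the members was not tested. Because the samples are whole tumours, fewer cells of a type and less RNA per cell cannot be told apart in any result that follows.

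**Figure D1:**
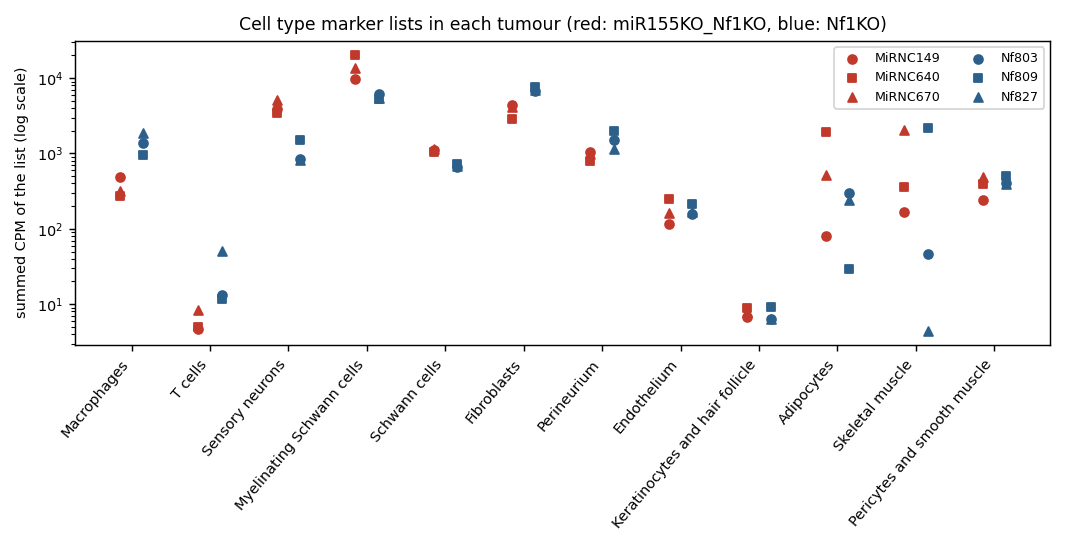
Summed CPM of each cell type marker list (log axis) in each tumour, red for miR155KO_Nf1KO and blue for Nf1KO, with 1 symbol shape per tumour. Neuron and myelin lists lie higher and macrophage and fibroblast lists lower in all 3 miR155KO_Nf1KO tumours, while the skeletal muscle list separates tumours MiRNC670 and Nf809 from the other tumours of their groups.

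The study set out to find miR-155 targets, so the miR-155 sequence and its matches in these genes are shown first. The mature miR-155-5p (RefSeq, GRCm38.p6, chr16:84714143-84714165, plus strand) is printed with its seed, bases 2 to 8, in capitals, followed by 4 stretches of 3′ UTR (GENCODE M21, GRCm38) in the sense of the transcript, with the seed match in capitals. The stretches are those of the 2 members with an 8mer match (AGCATTAA) and of Fzd3, the 1 member called higher.
mmu-miR-155-5p: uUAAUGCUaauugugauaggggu
Lrp6, 8mer at chr6:134448939-134448946, minus strand: tcagtcagataAGCATTAActcttcctgtt
Tcf7, 8mer at chr11:52253005-52253012, minus strand: agaagctcaccAGCATTAAcaactagtcaa
Fzd3, 7mer at chr14:65196214-65196220, minus strand: gatgagttcatAGCATTAggaagtaggtat
Fzd3, 7mer at chr14:65198736-65198742, minus strand: gagtacaaaatGCATTAAgttcaatatatt

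A seed match, meaning AGCATTAA or either of its 7-base parts AGCATTA and GCATTAA, occurred in the longest annotated 3′ UTR of 11 of the 55 members, and all 11 were among the 36 tested. They were Axin2, Fzd3, Fzd4, Fzd5, Fzd8, Lgr5, Lrp5, Lrp6, Rspo2, Tcf7 and Znrf3. Besides its 8mer, Lrp6 held a 7-base match at chr6:134447615-134447621 that is not printed above. Of 14033 tested genes with a 3′ UTR, 14.8% held a match, and 3.51% an 8mer. Among the 36 tested members 30.6% held one. The 3′ UTRs of the tested members had a median of 1995 bases against 1393 over all tested genes, and those with a match 3400 against 2735 bases. The log2 fold changes (miR155KO_Nf1KO over Nf1KO, here and throughout) of the 11 members with a match had a median of 0.13, against -0.06 for the 25 without. Over all tested genes the same medians were 0.04 with and 0.00 without a match. Both 8mer members had negative values, -0.06 for Lrp6 and -0.83 for Tcf7, and neither was called. A match is a description of these letters and no measure of binding.

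Over the whole table, edgeR called 5.22% of the 15604 tested genes higher and 4.74% lower in miR155KO_Nf1KO at an adjusted p under 0.05. Of the 36 tested members 1 was called higher (2.78%), Fzd3, and 3 were called lower (8.33%), Lgr6, Nkd2 and Wnt2, counts that stand near the whole-table shares. The median log2 fold change of the tested members was -0.05, with 17 above and 19 below 0, against a median of 0.01 over all genes tested. CPM ranges of the groups did not overlap for 4 members on the higher side and 7 on the lower side. Over all tested genes 16.3% were separated on the higher side and 16.3% on the lower side. The called members were 1 receptor, 1 R-spondin receptor, 1 intracellular antagonist and 1 ligand, with no role in which a majority was called.

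**Figure D2:**
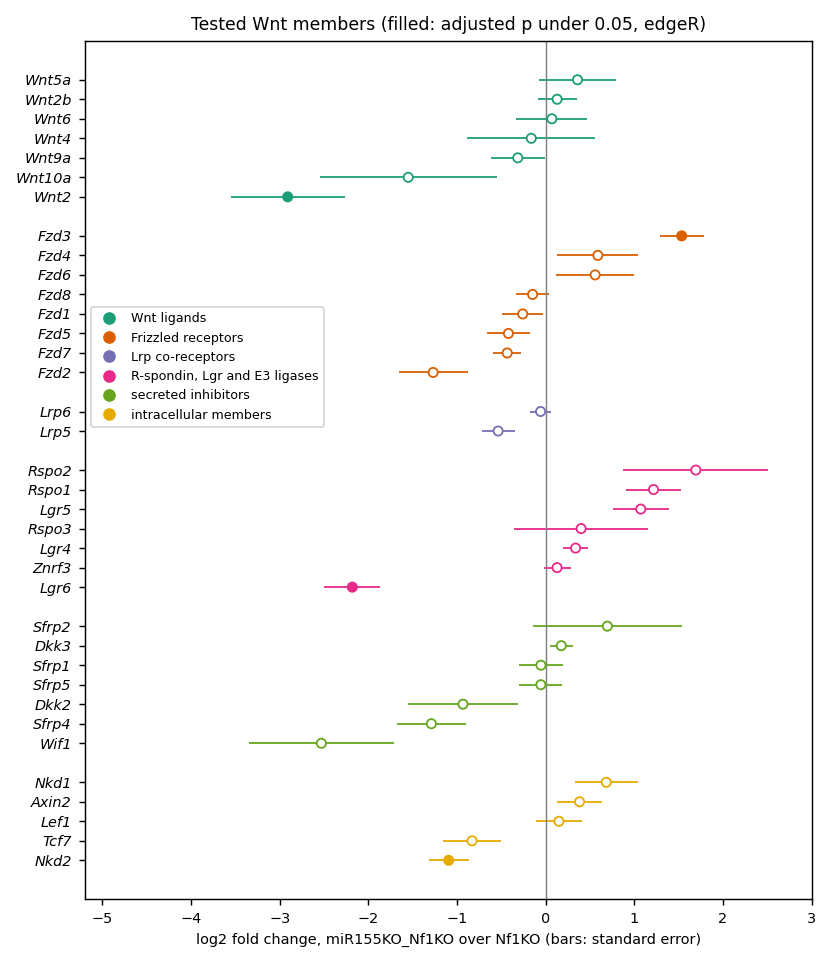
Log2 fold change of each of the 36 tested members with its standard error, grouped by role, with filled points for an adjusted p under 0.05 by edgeR. Fzd3 (1.53) is the filled point on the right, and Lgr6 (-2.18), Wnt2 (-2.91) and Nkd2 (-1.09) are those on the left, while most points lie within 1 log2 unit of 0.

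Among the Wnt ligands, 7 of 19 were tested, and Wnt2 was the 1 that changed. Wnt2 (ENSMUSG00000010797.6, chromosome 6, 17988940 to 18030585, minus strand), a ligand known best from lung and placental development, had 1, 3 and 2 reads in miR155KO_Nf1KO and 14, 18 and 18 in Nf1KO. Scaled to the libraries, that was 0.142 ± 0.0706 CPM (SD, n = 3) against 1.11 ± 0.0945 CPM (SD, n = 3), and the ranges were far apart. The pooled reads, 6 against 50, put Wnt2 7.98 times higher in Nf1KO, and exact binomial limits at 95%, for counting error only, were 3.42 and 22.8. Its log2 fold change was -2.91 (SE 0.64; edgeR adjusted p = 0.0362). This call rested on few reads and was lost without any single tumour (edgeR adjusted p from 0.0594 without Nf809 to 0.135 without MiRNC670). It was also lost with limma voom (0.0615), with no low-count filter (0.0705) and without MiRNC670 and Nf809 together. In all, Wnt2 was called in 7 of 16 alternatives.

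None of the ligands that made up most of the Wnt transcripts passed the test. Per kilobase of exon, Wnt2b was the most abundant, at 8.77 ± 1.63 CPM per kb in miR155KO_Nf1KO and 8.02 ± 1.86 CPM per kb in Nf1KO (SD, n = 3), which was 50.7% and 47.3% of the summed Wnt level. Wnt6, a ligand first known from epithelia, followed with 2.67 ± 0.501 and 2.54 ± 1.13 CPM per kb. Wnt5a, the main ligand of the beta-catenin-independent branch, was at 13.1, 25.5 and 15.4 CPM against 23.2, 8.10 and 10.9 CPM. Its groups overlapped and the log2 fold change was 0.36 (SE 0.43; edgeR adjusted p = 0.656). Wnt5a shares exonic bases with a gene on the opposite strand, as do 9 other members (Fzd5, Fzd6, Rspo3, Sfrp2, Lef1, Axin2, Notum, Wnt7b and Wnt11), so some of their reads could belong to the other strand. None of the 4 called members does.

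Wnt9a, at 5.71 ± 1.72 and 7.09 ± 1.21 CPM, and Wnt4, at 1.88 ± 1.61 and 2.08 ± 1.31 CPM, also overlapped between the groups. Wnt10a had 25, 8 and 0 reads against 27, 50 and 21 (log2 fold change -1.55, SE 0.9994; edgeR adjusted p = 0.377), so that MiRNC149 lay within the range of Nf1KO. The other 12 ligands were too low to test. Wnt7a was the highest of them in miR155KO_Nf1KO, with 14, 22 and 2 reads against 1, 1 and 5, and its ranges overlapped through MiRNC670 and Nf827. Its pooled reads, 38 against 7, stood 5.67 to 1 after scaling, between exact limits (95%, for counting error only) of 2.5 and 15. In the edgeR fit with no filter, which takes the spread among tumours into account, its adjusted p was 0.264. Wnt3a had no read in any tumour, which allows up to 0.238 CPM (3 reads) in the shallowest library. Summed over all ligands, the Wnt level was 16.7 to 17.9 CPM per kb in miR155KO_Nf1KO and lay within the 13.7 to 20.8 CPM per kb of Nf1KO.

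Among the Frizzled receptors Fzd3 rose, while the ranges of the family total overlapped. Fzd3 (ENSMUSG00000007989.7, chromosome 14, 65192449 to 65262463, minus strand), a receptor required for the guidance of many axon tracts, was at 222, 417 and 335 CPM in miR155KO_Nf1KO and 132, 113 and 92.2 CPM in Nf1KO. Every miR155KO_Nf1KO tumour lay above every Nf1KO tumour. The means were 325 ± 97.6 and 112 ± 19.9 CPM (SD, n = 3), and the log2 fold change was 1.53 (SE 0.25; edgeR adjusted p = 0.0228), or 2.89-fold. Its call was lost without MiRNC640, MiRNC670, Nf803 or Nf827 (edgeR adjusted p = 0.0544, 0.0937, 0.0842 and 0.0748), fits in which edgeR called 142, 0, 0 and 0 genes in the whole table (3402, 3239, 3332 and 3263 at an unadjusted p under 0.05). It was also lost without MiRNC670 and Nf809 together (0.0742), although the log2 fold change stayed between 1.31 and 1.75, and DESeq2 called Fzd3 with each tumour left out in turn.

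Sensory neuron markers were higher in the same tumours, as given above. Within Nf1KO, Nf809 had the highest neuron sum of its group (1522 CPM against 842 and 822 CPM) and a Fzd3 level of 113 CPM, between those of Nf803 and Nf827. Within miR155KO_Nf1KO, MiRNC640 had the highest Fzd3 and the lowest neuron sum (3426 CPM). It also had the highest sum of myelinating Schwann cell markers, 20570 CPM against 9784 CPM in MiRNC149 and 13770 CPM in MiRNC670. In Nf1KO the myelin sums were 6161, 5226 and 5482 CPM, an order that the Fzd3 levels of 132, 113 and 92.2 CPM did not follow. All 6 genes of the myelin list were called higher, and the part of neither list in the Fzd3 level was tested.

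Per kilobase of exon, Fzd1 was the most abundant Frizzled transcript, at 44.2 ± 15.5 CPM per kb in miR155KO_Nf1KO and 52.9 ± 2.03 CPM per kb in Nf1KO (SD, n = 3). Fzd3 made up 26.7% ± 8.34 of the summed Frizzled level in miR155KO_Nf1KO against 8.87% ± 1.27 in Nf1KO (SD, n = 3). The sum itself was 88.3 to 100.2 CPM per kb against 90.1 to 105.9 CPM per kb, so it overlapped. Fzd1 stood at 259, 159 and 138 CPM against 230, 222 and 213 CPM, with MiRNC149 above and the other 2 tumours below the range of Nf1KO. Its log2 fold change of -0.26 (SE 0.23; edgeR adjusted p = 0.529) became -0.57 without MiRNC149 and then passed the threshold (0.0468).

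Fzd2 and Fzd7 had lower levels in miR155KO_Nf1KO without overlap, and neither was called by edgeR. Fzd2, which takes part in both beta-catenin and Wnt5a signalling, was at 25.2, 12.6 and 31.8 CPM against 47.3, 79.8 and 40.5 CPM (log2 fold change -1.27, SE 0.39; edgeR adjusted p = 0.0844), and DESeq2 called it (adjusted p = 0.00837). Fzd7, a receptor common in stem and progenitor cells, was at 34.3, 43.4 and 46.7 CPM against 60.3, 53.5 and 54.2 CPM (log2 fold change -0.43, SE 0.16; edgeR adjusted p = 0.135). The fibroblast marker list, whose summed level was 2906 to 4453 CPM against 6710 to 7652 CPM with 1 of 8 genes called lower (Lum), was lower in the same tumours. Dcn, Lum and Col1a1 had separated ranges and made up most of the sum, while the other 5 overlapped and Dpt (0.58) and Osr2 (0.27) had positive log2 fold changes, and the list's part in these levels was not tested. The other receptors overlapped between the groups: Fzd4, the receptor of norrin, had a log2 fold change of 0.59 (SE 0.46), Fzd6 of 0.56 (SE 0.44), Fzd5 of -0.42 (SE 0.25) and Fzd8 of -0.15 (SE 0.19). Fzd9 and Fzd10 were too low to test. The co-receptor Lrp6 overlapped at 372 ± 26.8 and 387 ± 31.0 CPM (SD, n = 3; log2 fold change -0.06, SE 0.12). Lrp5 was at 27.2, 30.4 and 20.8 CPM against 37.5, 34.8 and 41.6 CPM, with no overlap and no call (log2 fold change -0.54, SE 0.19; edgeR adjusted p = 0.115).

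**Figure D3:**
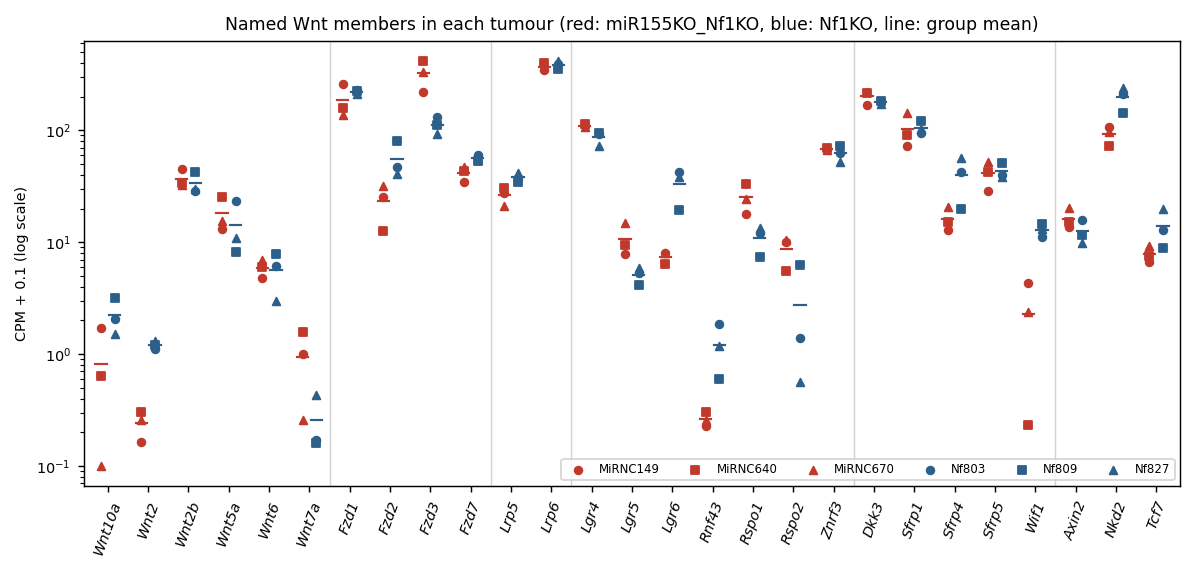
CPM plus 0.1 on a log axis for the members named by rule, grouped by role, with red points for the miR155KO_Nf1KO tumours, blue points for the Nf1KO tumours and a line at each group mean. Fzd3 and Rspo1 are separated upward and Wnt2, Lgr6, Nkd2 and Wif1 downward, whereas Lrp6, Sfrp5 and Znrf3 lie on top of each other.

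In the R-spondin branch the receptor Lgr6 fell, and no other of the 7 tested genes passed the edgeR test (3 of the others had an unadjusted p under 0.05). Lgr6 (ENSMUSG00000042793.13, chromosome 1, 134983301 to 135105276, minus strand), an R-spondin receptor known as a stem cell marker of the skin, was at 7.86, 6.28 and 7.92 CPM in miR155KO_Nf1KO and 42.8, 19.4 and 38.0 CPM in Nf1KO. The groups were far apart, with Nf809 the lowest of Nf1KO. Lgr6 fell from 33.4 ± 12.3 to 7.35 ± 0.928 CPM (SD, n = 3), a log2 fold change of -2.18 (SE 0.31; edgeR adjusted p = 0.0201), or 4.54-fold lower. The call was lost without MiRNC640, MiRNC670, Nf803 or Nf827 (edgeR adjusted p = 0.0565, 0.0855, 0.0838 and 0.0668) and held without MiRNC670 and Nf809 together (0.0227) and in each DESeq2 fit with 1 tumour left out. Keratinocyte and hair follicle markers summed to 6.83 to 8.78 CPM against 6.29 to 9.27 CPM over 6 genes. Krt5, Krt14, Krt15 and Dsg3 were at 0 in at least 1 tumour. The part of this list in the Lgr6 level was not tested.

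Lgr5, the receptor that marks intestinal stem cells, was at 7.73, 9.39 and 14.7 CPM against 5.23, 4.08 and 5.83 CPM, higher in each miR155KO_Nf1KO tumour than in any Nf1KO tumour. Its log2 fold change was 1.07 (SE 0.32; edgeR adjusted p = 0.0768), which did not pass, while DESeq2 called it (0.0209). That was the 1 call among 16 alternatives, over which the log2 fold change ran from 0.60 to 1.26. With a tumour left out, DESeq2 called Lgr5 in 2 of 6 fits. Per kilobase of exon the ratio of Lgr6 to Lgr5 was 1.52, 1 and 0.806 in miR155KO_Nf1KO and 12.3, 7.13 and 9.76 in Nf1KO, a ratio formed after the values were seen. Lgr4, the most abundant of the 3 receptors per kilobase, made up 89.8% of their sum in miR155KO_Nf1KO and 73.4% in Nf1KO. It was at 109, 113 and 107 CPM against 92.6, 95.4 and 72.2 CPM, with no overlap and no call (log2 fold change 0.34, SE 0.14; edgeR adjusted p = 0.175). Summed over the receptors, the level of 20.4 to 21.0 CPM per kb lay within the 18.4 to 22.5 CPM per kb of Nf1KO.

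None of the R-spondins, the ligands of these receptors, was called by edgeR (3 tested, 1 at an unadjusted p under 0.05; DESeq2 called Rspo1). Rspo1 was at 17.9, 33.3 and 24.2 CPM against 11.9, 7.23 and 13.3 CPM, with no overlap (log2 fold change 1.22, SE 0.31). With an edgeR adjusted p of 0.0537 it missed the threshold, and it passed with DESeq2 (0.00449), with voom and sample quality weights (0.0287), without MiRNC149 (0.0447) and with no low-count filter (0.0489). The other 12 of 16 alternatives did not pass, among them those without MiRNC640 (edgeR adjusted p = 0.148), MiRNC670 (0.16), Nf803 (0.154), Nf809 (0.0787) or Nf827 (0.0983). Rspo2 was at 9.98, 5.40 and 10.4 CPM against 1.31, 6.12 and 0.469 CPM, so that Nf809 lay within the range of miR155KO_Nf1KO. Its log2 fold change was 1.69 (SE 0.82; edgeR adjusted p = 0.238), and it was 3.27 and passed without Nf809 (0.0126). Rspo3 was low and overlapped (22, 37 and 5 reads against 6, 22 and 22), and Rspo4 was too low to test. Together the R-spondins came to 11.9 to 19.1 CPM per kb against 5.37 to 7.55 CPM per kb, without overlap, and Rspo1 made up 84.4% and 84.5% of that sum.

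The ubiquitin ligase Znrf3, which removes Frizzled from the membrane, overlapped at 67.9 ± 0.971 and 62.2 ± 10.4 CPM (SD, n = 3). Its relative Rnf43 was close to the detection limit, with 2, 3 and 2 reads against 24, 8 and 16, and did not pass the low-count filter. The ranges did not overlap, and the pooled reads, 7 against 48, put it 6.57 times higher in Nf1KO, between exact counting limits (95%) of 2.95 and 17.2. In the edgeR fit with no filter its adjusted p was 0.104. Without Nf809 it passed the filter and was called lower, by edgeR (adjusted p = 0.0393) and by DESeq2 (0.0198). It also passed the filter without MiRNC149, MiRNC640 or MiRNC670, and edgeR did not call it (adjusted p = 0.139, 0.16 and 0.188). DESeq2 did not call it in those fits either (0.107, 0.0958 and 0.106), nor did edgeR without MiRNC670 and Nf809 together (0.0926).

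**Figure D4:**
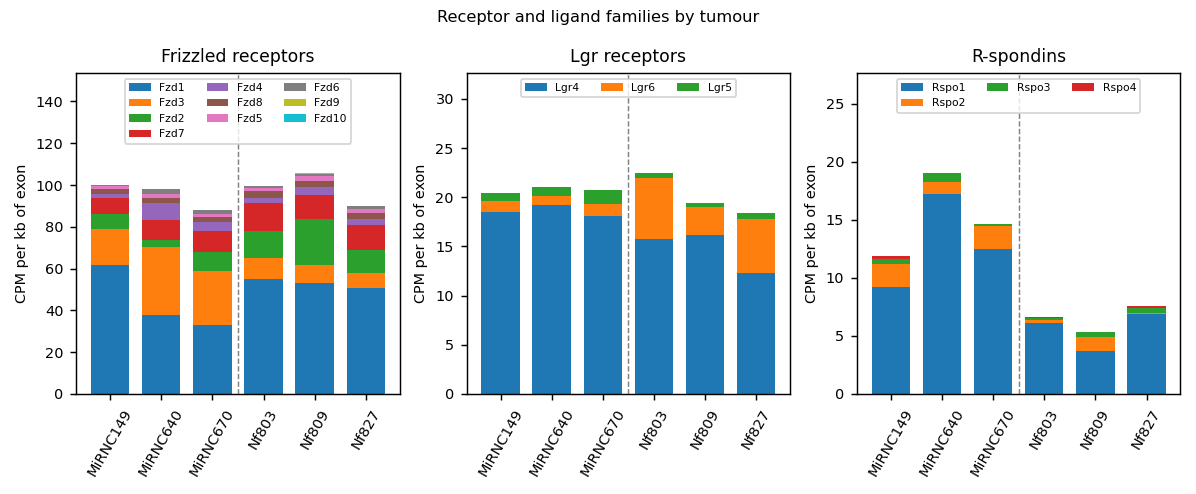
Stacked levels in CPM per kb of exon for the Frizzled receptors, the Lgr receptors and the R-spondins in each tumour, with miR155KO_Nf1KO left and Nf1KO right of the dashed line. The Frizzled sum stays between 88.3 and 105.9 CPM per kb while Fzd3 takes a larger part in miR155KO_Nf1KO, Lgr6 takes a smaller part, and the R-spondin sum is higher in all 3 miR155KO_Nf1KO tumours.

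None of the secreted inhibitors among the members was called by edgeR, over 7 tested of 10. Of these 7, 2 had an unadjusted p under 0.05, and DESeq2 called 2, Wif1 and Sfrp4. Frzb, a secreted Frizzled-related inhibitor whose symbol lies outside the rule for members, was called higher and is described below. Wif1, which binds Wnt ligands outside the cell, was at 4.19, 0.135 and 2.30 CPM against 11.0, 14.4 and 12.99 CPM. The groups did not overlap, with MiRNC640 far below the other tumours, and the log2 fold change was -2.53 (SE 0.82; edgeR adjusted p = 0.0969). Sfrp4, a decoy of the Frizzled type, was at 12.7, 15.1 and 20.6 CPM against 42.0, 19.8 and 56.6 CPM, with Nf809 inside the range of miR155KO_Nf1KO. Its log2 fold change was -1.29 (SE 0.38; edgeR adjusted p = 0.0787) and passed without Nf809 (0.00987) and without MiRNC670 and Nf809 together (0.026).

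The abundant inhibitors among the members had overlapping ranges. Dkk3, a divergent member of the Dickkopf family, had the highest mean level per kilobase of the members, with Fzd1 above it in MiRNC149 and Nf803, at 60.1 ± 8.26 and 53.2 ± 1.52 CPM per kb (SD, n = 3; log2 fold change 0.18, SE 0.13), and made up 99.2% and 98.4% of the summed Dkk level. Dkk1, the classic inhibitor of Lrp6, had 1 read in the 6 tumours together. Sfrp1 was at 102 ± 36.7 and 106 ± 13.1 CPM and Sfrp5 at 41.2 ± 11.9 and 42.8 ± 6.73 CPM, with log2 fold changes of -0.05 (SE 0.25) and -0.06 (SE 0.24) that changed sign under some settings. Sfrp2 (log2 fold change 0.69, SE 0.84) and Dkk2 (log2 fold change -0.93, SE 0.62) overlapped between the groups. Notum and Dkk4 were too low to test.

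Inside the cell, Nkd2 fell, and the direct target Axin2 did not pass the test. Nkd2 (ENSMUSG00000021567.15, chromosome 13, 73818534 to 73847631, minus strand), an antagonist that binds Dishevelled, was at 107, 73.1 and 97.3 CPM in miR155KO_Nf1KO and 209, 144 and 240 CPM in Nf1KO. The ranges did not overlap, with Nf809 again the lowest of Nf1KO. The means were 92.4 ± 17.4 and 197 ± 49.1 CPM (SD, n = 3), and the log2 fold change was -1.09 (SE 0.23; edgeR adjusted p = 0.0308), or 2.14-fold lower. The call was lost without MiRNC640, MiRNC670, Nf803 or Nf827 (edgeR adjusted p = 0.0849, 0.108, 0.103 and 0.0923), and held without MiRNC670 and Nf809 together (0.033) and in each DESeq2 fit with 1 tumour left out.

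Its relative Nkd1 was at 10.6 ± 3.75 and 6.62 ± 1.82 CPM (log2 fold change 0.68, SE 0.35; edgeR adjusted p = 0.27), on the other side of 0 from Nkd2, and its groups overlapped. Axin2, a target gene that feeds back on the beta-catenin pathway, was at 13.5, 14.9 and 20.0 CPM against 15.8, 11.6 and 9.78 CPM, with overlap (log2 fold change 0.38, SE 0.25; edgeR adjusted p = 0.39). Lef1 was at 11.9 ± 3.24 and 10.7 ± 1.27 CPM (log2 fold change 0.15, SE 0.26). Tcf7 was at 6.57, 7.43 and 9.19 CPM against 12.9, 8.84 and 19.6 CPM, overlapping through Nf809 (log2 fold change -0.83, SE 0.32; edgeR adjusted p = 0.154), and passed without Nf809 (0.0493). Tcf7 is also a T cell factor, and the T cell marker list summed to 4.70 to 8.40 CPM against 11.8 to 51.2 CPM, highest in Nf827 as Tcf7 was. None of its 4 tested genes was called by edgeR (3 at an unadjusted p under 0.05), and its part in the Tcf7 level was not tested.

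Of 81 further pathway genes listed, 70 were tested, with 4 called higher (5.71%) and 6 lower (8.57%), again near the whole-table shares. Their median log2 fold change was -0.09. Of the 10 calls, edgeR kept none without MiRNC640, MiRNC670, Nf803 or Nf827, 8 without MiRNC149 or Nf809, and 2 without MiRNC670 and Nf809 together, and DESeq2 kept 9 or 10 with each tumour left out. None of 15 destruction complex and transduction genes and none of 12 nuclear factors was called by edgeR (3 and 1 at an unadjusted p under 0.05). Beta-catenin and Apc were picked out after their values were seen. Beta-catenin, Ctnnb1, was at 262 ± 13.1 and 303 ± 20.2 CPM (log2 fold change -0.21, SE 0.11), and Apc, which holds beta-catenin for degradation, at 673 ± 38.8 and 508 ± 22.7 CPM (log2 fold change 0.41, SE 0.11; edgeR adjusted p = 0.0557). Apc passed in 5 of 16 alternatives and in 3 of 6 DESeq2 fits with a tumour left out, and Ctnnb1 in none of either.

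Outside the cell, 2 of 9 tested regulators rose and 2 fell, 22.2% each way against 5.22% and 4.74% of all tested genes. The genes of this list were chosen with earlier results known, so these shares are no measure of an excess. Frzb, a secreted Frizzled-related inhibitor, was called higher at 56.6 ± 21.0 CPM against 14.9 ± 5.65 CPM (SD, n = 3 in each group, as below; log2 fold change 1.92, SE 0.39; edgeR adjusted p = 0.0291). Ndp, which encodes norrin, the ligand of Fzd4, stood at 11.1 ± 2.74 against 2.65 ± 0.442 CPM (log2 fold change 2.07, SE 0.30; edgeR adjusted p = 0.0201). Cthrc1, a secreted protein that favours the polarity branch, fell from 17.1 ± 1.97 to 4.403 ± 2.12 CPM, and Igfbp4 from 224 ± 79.0 to 106 ± 17.8 CPM (edgeR adjusted p = 0.0277 and 0.041). Of 10 tested secretion and co-receptor genes Gpc4, a glypican, fell from 57.7 ± 9.83 to 30.3 ± 6.63 CPM (edgeR adjusted p = 0.0406).

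In the planar cell polarity list 2 of 10 genes rose (20.0% against 5.22% of all tested genes), both of the Celsr cadherin family that works with Fzd3 in axon guidance. This list, too, was chosen with earlier results known, and its share is no measure of an excess. Celsr3 stood at 24.6 ± 3.91 against 9.94 ± 3.62 CPM (log2 fold change 1.31, SE 0.31; edgeR adjusted p = 0.0408) and Celsr2 at 73.8 ± 12.3 against 44.5 ± 7.01 CPM (log2 fold change 0.73, SE 0.18; edgeR adjusted p = 0.0492). Celsr2 passed in 5 of 16 alternatives, and was lost with other edgeR scalings (adjusted p = 0.0516 to 0.0525) and without Nf809 (0.0686). The list known as beta-catenin targets had 3 of 15 tested genes called lower (20.0%, against 4.74% of all tested genes) and none higher by edgeR, and 8 had an unadjusted p under 0.05. Its median log2 fold change was -0.78, against 0.01 over all genes, and the genes of the list were chosen with earlier results known. These were Ccnd1, which encodes cyclin D1 (from 1213 ± 339 to 471 ± 9.003 CPM, edgeR adjusted p = 0.0211), Tcf4, a helix-loop-helix factor (from 487 ± 37.2 to 302 ± 31.3 CPM, 0.0254) and Ppard, a nuclear receptor (from 38.4 ± 4.15 to 20.9 ± 2.31 CPM, 0.0263). All 3 also answer to other signals, and the part of beta-catenin or of any other signal in their levels was not tested. Of the 5 intracellular members, Axin2, Lef1 and Nkd1 had positive log2 fold changes and were not called. Tcf7 (-0.83, not called) and Nkd2 (-1.09, called lower) had negative ones.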

How the data were processed

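The deposited values are raw read counts by gene symbol, which the authors left unscaled, with a column for each tumour. HISAT2 2.0.5, featureCounts 1.5.2 and mm10 are named per the submitters' processing notes. Which annotation and strand setting were used, and how multi-mapping reads were handled, is not given in the sources used here. The library kit was Nextera XT, per the labels' protocols.

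The members and gene lists were chosen with earlier results of these data known. Groups follow the sample titles. Pairs of tumours in a group differed by a chi-square of 22.1 to 96.8 per gene, so none was a repeat deposit. The comparison used edgeR 4.0.16 under R 4.3.3 (quasi-likelihood test, two-sided, TMM scaling, filterByExpr with minimum count 10 and minimum total 15), and p-values were adjusted over all 15604 tested genes by Benjamini-Hochberg. A standard error is the one implied by the quasi-likelihood F statistic. Library totals give 1 read a worth of 0.0618 to 0.0792 CPM. Exonic length is the union of GENCODE M21 exons (GRCm38), in which all 55 members matched by symbol, and coordinates are 1-based. Exact intervals used scipy 1.17.1. Alternatives, described at the end, used DESeq2 1.42.0, limma 3.58.1 and other scalings and filters. The edgeR fit was tested on simulated data. By rule, members were described in full when called, when their CPM ranges did not overlap, when among the 3 most abundant per kb of their role, or when beyond 1 log2 unit with at least 30 reads, and from each further list up to 4 called genes were named. Other members named were chosen after their values were seen. In the lists, Ccn4 and Ccn5 were matched by their older symbols Wisp1 and Wisp2.
1 gene of the marker lists is not reported here and enters none of the sums.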

Additional observations from a re-analysis of the deposited data

How the results depend on the processing

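With 3 tumours a group, 1 tumour can decide a call, and members under about 10 reads cannot be placed at this depth. Against 1 member called higher and 3 called lower, an adjusted p under 0.1 gave 3 and 6, DESeq2 gave 3 and 6, and voom with sample quality weights gave 3 and 5. Without a low-count filter 2 were higher, and without MiRNC670 and Nf809, the tumours with the most skeletal muscle RNA, 0 were higher (edgeR, 13 members at an unadjusted p under 0.05; DESeq2 was not run on those 4 tumours). Over all genes, 1554 calls became 2702 at an adjusted p under 0.1, 2962 with DESeq2 and 2675 with quality weights. With each tumour left out in turn, by edgeR and by DESeq2 (a repeat added after seeing the data), 0 to 3 members were higher, 0 to 6 lower, and 0 to 3349 genes were called in all. The edgeR fits without MiRNC640, MiRNC670, Nf803 or Nf827 called no member, with 12, 13, 10 and 11 at an unadjusted p under 0.05, while DESeq2 called Fzd3, Lgr6 and Nkd2 in all 6 fits and Wnt2 in 2 of 6. The cause was not tested.

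Of the 36 tested members, 9 changed sign under some alternative, none of them called. With a tumour left out the log2 fold change ran from -0.038 to 0.34 for Wnt2b, -1.14 to 0.48 for Wnt4, -0.25 to 0.40 for Wnt6, -0.058 to 0.96 for Fzd4, -0.27 to 0.84 for Rspo3, -0.40 to 0.14 for Sfrp1, -0.23 to 1.19 for Sfrp2, -0.28 to 0.15 for Sfrp5 and -0.021 to 0.36 for Lef1. With quality weights it was 0.071 for Wnt4, 0.058 for Sfrp1 and 0.040 for Sfrp5, and without MiRNC670 and Nf809 together -0.050 for Lef1. No called member changed sign under any alternative run. No paired analysis was possible because the groups share no tumour number.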
